A study of Macaca fascicularis with 2 samples.

Results

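The HOX cluster genes encode homeodomain transcription factors and were taken as every row of the count table named HOXA, HOXB, HOXC or HOXD followed by a number and nothing else, which gave 35 of 18446 genes. They comprised 11 genes of HOXA, 10 of HOXB (paralog numbers 1 to 9 and 13), 7 of HOXC (4 to 6 and 10 to 13) and 7 of HOXD (1, 3, 4, 9, 10, 12 and 13). HOXC8, HOXC9, HOXD8 and HOXD11, which RefSeq also lists among its 39 genes of the macaque clusters, were not analysed here. The cells came from the fetal ovaries of cynomolgus monkeys (Macaca fascicularis), from 1 fetus at embryonic day 84 and 1 at embryonic day 116, with the 2 ovaries of each fetus dissociated together into 1 droplet library. The table does not tie its 2 barcode endings to a stage, so the 20967 cells were described together. Comparisons of HOX genes between groups were repeated within an ending where it held at least 50 cells of both groups. Those of the other gene lists were made on the pooled cells only. With 1 library per stage there was no replicate animal, no test was run, and each interval in parentheses is an exact 95% interval that covers counting error only. In all, 82130 of 148824177 UMIs (molecules counted once through their unique molecular identifier) came from HOX genes, or 552 CPM (UMIs of a gene per 1000000 UMIs).

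HOX genes lie in 4 clusters on separate chromosomes, and the paralog number gives a gene's place in its cluster, from number 1 at the end that is switched on earliest and farthest forward in the embryo to number 13 at the end used in the tail, limbs and genital region. Retinoic acid (RA) turns on the low-numbered end first, while Polycomb proteins hold the clusters silent and Trithorax proteins keep them on. HOX proteins bind DNA together with the TALE homeodomain proteins of the PBX, MEIS and PKNOX families, and cells of the trunk usually keep the HOX code of their axial level, so that neighbouring tissues of different origin can be told apart by it.

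Cells were clustered without the HOX genes and named from fixed markers, so every name below stands for cells that resemble the type. The 8 somatic groups were granulosa-like (6378 cells), ovarian surface epithelium-like (1259), stroma-like (4571), endothelial-like (548), pericyte-like (140), macrophage-like (246) and erythroid-like cells (744) and a cluster led by CBLN2 and LYPD1 (815) that no marker list could name. The 6266 germ cell-like cells held 4 named steps: mitotic-like (255, led by NANOG among others), RA-responsive-like (1486, with STRA8, ZGLP1 and REC8 as markers), meiotic-like (1291) and oogenesis-like (669). The remaining 2565 germ cell-like cells had few UMIs, somatic genes in the lead or under 3 markers of any step, and stayed unnamed. Among them were 445 deep cells, with a median of 21530 UMIs and with SOST and KITLG among their leading genes. Barcodes ending in 1 held 252 of the mitotic-like cells, barcodes ending in 2 held 649 of the oogenesis-like cells and all CBLN2 LYPD1 cells, and 27 barcodes occurred under both endings. Apart from the unnamed germ cells, the median depth of the groups ran from 2624 UMIs in macrophage-like to 11884 in mitotic-like cells. UMIs were counted at the 3′ end without a correction for length, so a CPM level is compared between groups within a gene, and a sum over genes is weighted towards the abundant members.

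HOX output differed between germ and somatic cells in which clusters it came from. The summed level of all 35 genes was 860.5 CPM (845 to 876) in surface epithelium-like cells and 842 CPM (827 to 857) in RA-responsive-like germ cells, followed by 638 CPM in granulosa-like and 582 in meiotic-like cells. It was lower in stroma-like (391 CPM), CBLN2 LYPD1 (386), endothelial-like (323), pericyte-like (262), oogenesis-like (248) and mitotic-like cells (244), and the blood cells had 138 CPM (macrophage-like) and 48.7 CPM (erythroid-like). HOXA and HOXB genes gave 84.7% of the HOX UMIs in mitotic-like and 80.1% in RA-responsive-like germ cells, 71.2% in meiotic-like and 66.4% in oogenesis-like cells. Within the oogenesis-like cells they gave 1772 of 2629 HOX UMIs in 321 deeper cells but 57 of 126 in the other 348. The same share was 51.8% in pericyte-like, 45.1% in endothelial-like and 29.7% in stroma-like cells, and 6.62%, 5.98% and 2.44% in the surface epithelium-like, granulosa-like and CBLN2 LYPD1 groups. In those 3 groups 85.4%, 87.6% and 87.5% of HOX UMIs came from HOXD alone. HOXD4 and HOXD9 together held 50.9% of all HOX UMIs. Without them the sum was 726 CPM in RA-responsive-like, 486 in meiotic-like, 241 in surface epithelium-like, 224 in stroma-like and 162 in granulosa-like cells, so that the granulosa-like sum was then below the stroma-like one.

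**Figure D1:**
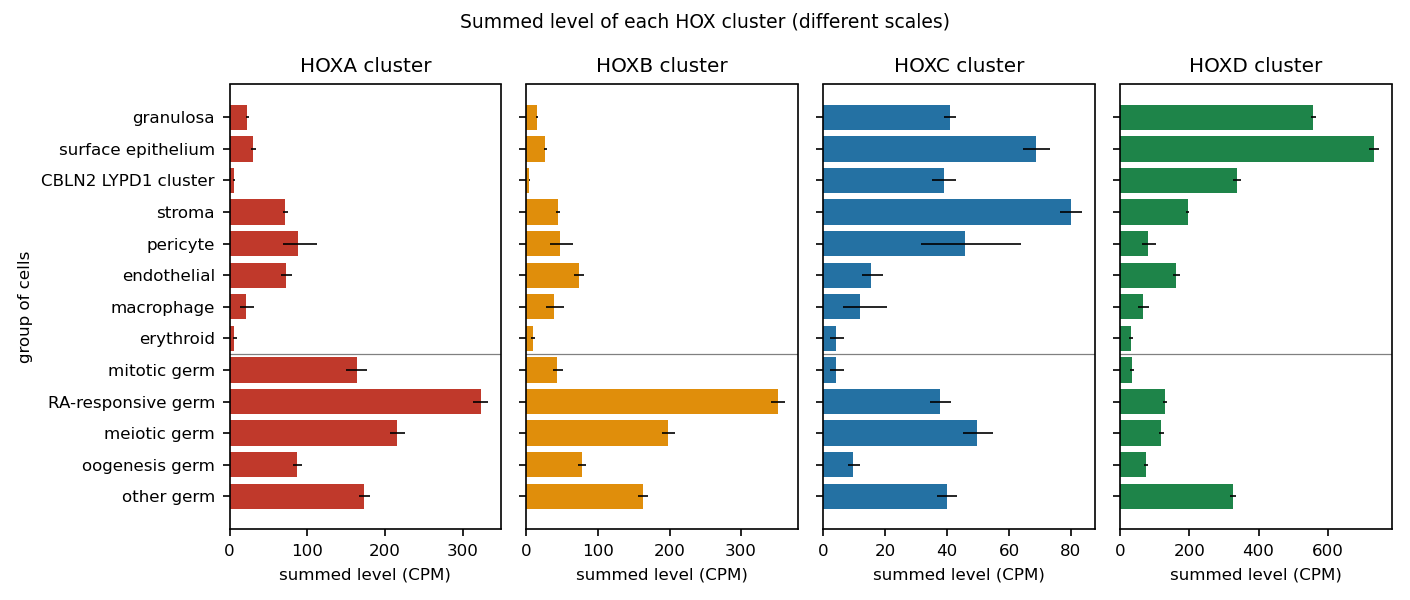
Summed level of each HOX cluster (CPM, one panel per cluster, each with its own axis from 0) in the 8 somatic groups, the 4 germ cell steps and, last, the unnamed germ cells, with exact 95% Poisson intervals for counting error; names stand for marker-based groups. HOXA and HOXB bars are tallest at the RA-responsive-like step (323 and 352 CPM) and HOXD bars in surface epithelium-like (735) and granulosa-like cells (559).

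Free RNA released during dissociation reaches every droplet, so low levels were read against groups that should lack a gene. The stroma marker list (12 of 12 genes detected in each germ cell step) summed to between 0.948% and 1.84% of its stroma-like level in the 4 germ cell steps. HOXA and HOXB together were at 582% of the stroma-like level in RA-responsive-like cells. The granulosa marker list (13 to 15 of 15 genes detected) stood at 17.01% of its granulosa-like level at the mitotic-like step, where HOXD3, HOXD4, HOXD9 and HOXD10 together stood at 5.87% of theirs. At the RA-responsive-like step the markers were at 16.1% and these HOXD genes at 22.6%, at the meiotic-like step at 13.5% and 18.5%, and at the oogenesis-like step at 7.39% and 12.4%. The HOXD value was thus below this marker value at the mitotic-like step and above it at the other 3 steps. The order at the mitotic-like step depended on the gauge. WT1, given below, stood there at a smaller share of its granulosa-like level than these markers or these HOXD genes. The part of free RNA in the HOXD values was not tested. In the unnamed germ cells the granulosa markers were at 49.1% and the 4 HOXD genes at 57.8% of the granulosa-like level, and these cells are left out of the comparisons between steps.

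Each member had its highest level in 1 of the 12 groups, and 27 of the 35 were highest in a germ cell step. Of the 32 members with at least 50 UMIs, 25 did so, against 51.3% of all 15147 genes with at least 50 UMIs. The RA-responsive-like step was highest for 14 members, with HOXA2, HOXA3, HOXA5, HOXA7, HOXA9, HOXB2 to HOXB5, HOXB7 to HOXB9 and HOXC13 among them. The meiotic-like step was highest for 10, 7 of them with paralog number 10 or above (HOXA13, HOXB13, HOXC10 to HOXC12, HOXD12 and HOXD13), and the mitotic-like step for HOXA6, HOXA10 and HOXA11. HOXD3, HOXD4, HOXD9 and HOXD10 were highest in surface epithelium-like cells, HOXC4 and HOXC6 in stroma-like cells, and HOXC5 and (on 1 UMI) HOXB1 in pericyte-like cells. For 16 of the 35 the interval of the runner-up group overlapped that of the highest one, HOXA9, HOXA10, HOXB6, HOXB9, HOXC4, HOXC5 and HOXC10 among the 22 members with at least 500 UMIs. Of the members highest at the meiotic-like step, only HOXC11 and HOXD13 had intervals apart from the runner-up. HOXA6, HOXA10 and HOXA11, highest at the mitotic-like step, all had overlapping ones. Of the 14 HOXA and HOXB genes with at least 500 UMIs, 13 were highest in a germ cell step within the barcodes ending in 1 (the exception was HOXB7) and 14 within those ending in 2.

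**Figure D2:**
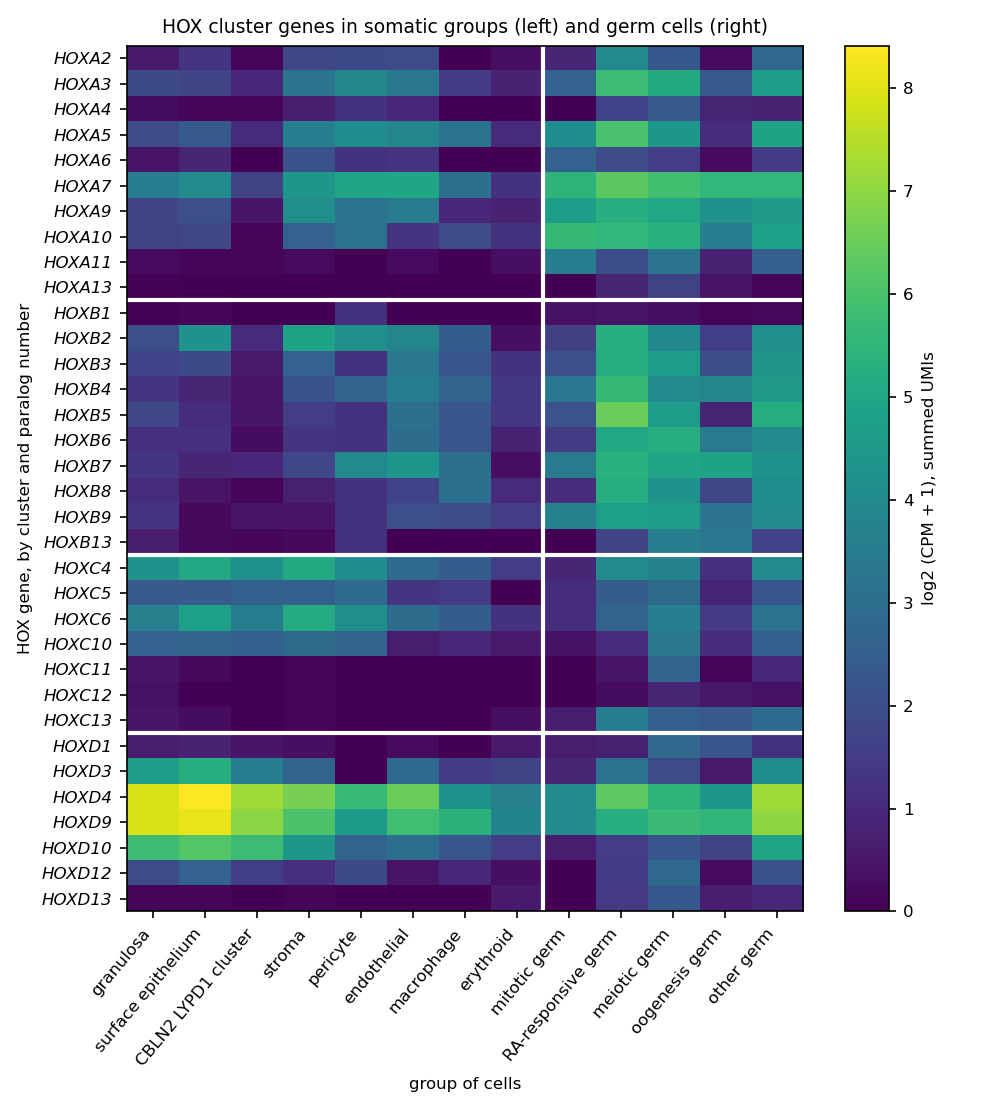
Level of HOX genes (rows, by cluster and paralog number) in the 8 somatic groups, the 4 germ cell steps and, last, the unnamed germ cells (columns, marker-based names), coloured by log2(CPM + 1). HOXA and HOXB rows are brightest in the germ cell columns, with HOXB5 at 91.2 CPM in RA-responsive-like cells, and HOXD4 and HOXD9 are brightest in surface epithelium-like and granulosa-like cells.

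In the HOXD cluster, a block of 4 genes set the somatic level. HOXD4 was at 239.5 CPM in granulosa-like, 339.8 (330.2 to 349.6) in surface epithelium-like, 148 in CBLN2 LYPD1, 101 in stroma-like, 91.3 in endothelial-like, 49.7 in pericyte-like, 18.4 in macrophage-like and 11.6 in erythroid-like cells. In germ cells HOXD4 stood at 15.6 CPM at the mitotic-like, 78.6 (73.97 to 83.4) at the RA-responsive-like, 43.3 at the meiotic-like and 20.5 at the oogenesis-like step. The surface epithelium-like and granulosa-like cells were above all other groups, and the 4 steps lay below the stroma-like level. HOXD9, which patterns the forelimb and the lumbar region, was also highest in these groups but had another order of germ cell steps. HOXD9 was at 237 CPM in granulosa-like, 279.7 (271 to 289) in surface epithelium-like, 122 in CBLN2 LYPD1, 65.2 in stroma-like, 56.2 in endothelial-like, 22.8 in pericyte-like, 41.5 in macrophage-like and 12.97 in erythroid-like cells. In germ cells HOXD9 stood at 15.6 CPM at the mitotic-like, 37.1 at the RA-responsive-like, 52.6 (47.8 to 57.7) at the meiotic-like and 45.9 at the oogenesis-like step. HOXD9 was highest at the meiotic-like of the 4 steps, and its germ cell levels from the RA-responsive-like step on (37.1 to 52.6 CPM) lay around the macrophage-like level. HOXD3, whose transcription unit overlaps that of HOXD4 in RefSeq so that their UMIs cannot be told apart with certainty, was lower throughout. HOXD3 was at 24.6 CPM in granulosa-like, 38.8 (35.6 to 42.2) in surface epithelium-like, 11.3 in CBLN2 LYPD1, 5.33 in stroma-like, 6.28 in endothelial-like, 0 in pericyte-like, 1.84 in macrophage-like and 2.12 in erythroid-like cells. In germ cells HOXD3 stood at 0.865 CPM at the mitotic-like, 7.81 (6.40 to 9.44) at the RA-responsive-like, 2.87 at the meiotic-like and 0.539 at the oogenesis-like step. HOXD3 was the member with the steepest step from surface epithelium-like to stroma-like cells among these 4. HOXD10 was at 54.5 CPM in granulosa-like, 70.2 (65.9 to 74.7) in surface epithelium-like, 54.02 in CBLN2 LYPD1, 21.1 in stroma-like, 7.21 in endothelial-like, 5.37 in pericyte-like, 3.69 in macrophage-like and 1.85 in erythroid-like cells. In germ cells HOXD10 stood at 0.577 CPM at the mitotic-like, 1.90 at the RA-responsive-like, 3.71 (2.52 to 5.27) at the meiotic-like and 2.16 at the oogenesis-like step. HOXD10, a gene of the forelimb and lumbar spinal cord, was thus at under 5 CPM in every germ cell step and at over 50 CPM in the 3 groups where HOXD was high. HOXD12, which shapes the digits, followed the block at a low level, with 5.29 CPM (4.15 to 6.64) in surface epithelium-like and 2.82 CPM in granulosa-like cells, but it was as high in meiotic-like cells (5.99 CPM (4.44 to 7.89)). HOXD1 and HOXD13, at the 2 ends of the cluster, had at most 1 CPM in any somatic group and 5.87 CPM (4.34 to 7.76) and 3.95 CPM (2.72 to 5.55) in meiotic-like cells.

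In the HOXC cluster, HOXC4 and HOXC6 were highest in stroma-like cells and high in surface epithelium-like cells, while HOXC10 to HOXC13 were highest in a germ cell step. HOXC4 was at 18.6 CPM in granulosa-like, 32.6 in surface epithelium-like, 18.3 in CBLN2 LYPD1, 33.2 (31.01 to 35.6) in stroma-like, 6.65 in endothelial-like, 16.1 in pericyte-like, 4.61 in macrophage-like and 1.85 in erythroid-like cells. In germ cells HOXC4 stood at 0.865 CPM at the mitotic-like, 15.3 (13.3 to 17.5) at the RA-responsive-like, 12.1 at the meiotic-like and 1.26 at the oogenesis-like step. The stroma-like and surface epithelium-like levels of HOXC4 did not differ beyond their intervals. HOXC6, a gene of the thoracic region, had its highest level in stroma-like cells. HOXC6 was at 11.8 CPM in granulosa-like, 26.02 in surface epithelium-like, 10.6 in CBLN2 LYPD1, 35.1 (32.8 to 37.4) in stroma-like, 6.84 in endothelial-like, 17.4 in pericyte-like, 4.61 in macrophage-like and 1.32 in erythroid-like cells. In germ cells HOXC6 stood at 1.15 CPM at the mitotic-like, 5.40 at the RA-responsive-like, 11.01 (8.88 to 13.5) at the meiotic-like and 1.80 at the oogenesis-like step. At all 4 germ cell steps it was below 12 CPM. HOXC5 was at 4.12 CPM in granulosa-like, 4.29 in surface epithelium-like, 5.01 in CBLN2 LYPD1, 4.97 in stroma-like, 1.48 in endothelial-like, 6.71 (2.18 to 15.7) in pericyte-like, 1.84 in macrophage-like and 0 in erythroid-like cells. In germ cells HOXC5 stood at 1.15 CPM at the mitotic-like, 4.52 at the RA-responsive-like, 6.46 (4.86 to 8.44) at the meiotic-like and 0.809 at the oogenesis-like step. HOXC5 varied little among the 4 main somatic groups, and its pericyte-like value rested on 5 UMIs. HOXC10 was at 5.24 CPM in granulosa-like, 5.50 in surface epithelium-like, 4.91 in CBLN2 LYPD1, 6.53 (5.57 to 7.605) in stroma-like, 0.555 in endothelial-like, 5.37 in pericyte-like, 0.922 in macrophage-like and 0.529 in erythroid-like cells. In germ cells HOXC10 stood at 0.288 CPM at the mitotic-like, 1.02 at the RA-responsive-like, 9.10 (7.17 to 11.4) at the meiotic-like and 1.17 at the oogenesis-like step. HOXC10, a gene of the lumbar cord and hindlimb, was the only one of these 4 with its highest level in meiotic-like cells, and its interval there overlapped the stroma-like one. HOXC4, HOXC5, HOXC6 and HOXC10 overlap one another in part in the RefSeq annotation, and how reads in shared stretches were assigned is not given in the sources used here. HOXC13, known from hair and nail, was a germ cell gene in this table, at 10.8 CPM (9.13 to 12.7) in RA-responsive-like cells, while no somatic group was above 0.417 CPM. HOXC11 reached 5.39 CPM (3.93 to 7.21) in meiotic-like cells and under 1 CPM elsewhere, and HOXC12 had 33 UMIs in all.

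The HOXA sum was low in the epithelial groups, intermediate in stroma-like, pericyte-like and endothelial-like cells and highest in germ cells up to the meiotic-like step. Single genes departed from this order, as HOXA3 did at the mitotic-like step, where it was below its stroma-like, endothelial-like and pericyte-like levels. HOXA3 was at 2.61 CPM in granulosa-like, 2.36 in surface epithelium-like, 0.921 in CBLN2 LYPD1, 8.52 in stroma-like, 9.43 in endothelial-like, 13.4 (6.44 to 24.7) in pericyte-like, 1.84 in macrophage-like and 0.794 in erythroid-like cells. In germ cells HOXA3 stood at 5.19 CPM at the mitotic-like, 53.7 (49.9 to 57.7) at the RA-responsive-like, 33.6 at the meiotic-like and 4.22 at the oogenesis-like step. HOXA3, needed for thymus and parathyroid, was 10.3 times as high at the RA-responsive-like as at the mitotic-like step. HOXA5 was at 2.92 CPM in granulosa-like, 4.22 in surface epithelium-like, 1.02 in CBLN2 LYPD1, 11.3 in stroma-like, 13.1 in endothelial-like, 16.1 (8.32 to 28.1) in pericyte-like, 8.30 in macrophage-like and 1.06 in erythroid-like cells. In germ cells HOXA5 stood at 16.2 CPM at the mitotic-like, 62.8 (58.6 to 67.1) at the RA-responsive-like, 20.7 at the meiotic-like and 1.17 at the oogenesis-like step. HOXA5, a gene of lung and thoracic vertebrae, was at the pericyte-like level at the mitotic-like step and had 13 UMIs in all oogenesis-like cells. HOXA3 overlaps HOXA4, HOXA5 and HOXA6 in RefSeq. HOXA7 was at 10.8 CPM in granulosa-like, 14.9 in surface epithelium-like, 2.15 in CBLN2 LYPD1, 21.05 in stroma-like, 29.9 in endothelial-like, 30.9 (19.6 to 46.3) in pericyte-like, 7.37 in macrophage-like and 1.32 in erythroid-like cells. In germ cells HOXA7 stood at 43.8 CPM at the mitotic-like, 77.7 (73.1 to 82.5) at the RA-responsive-like, 56.7 at the meiotic-like and 46.7 at the oogenesis-like step. HOXA7, with 4236 UMIs in all, kept most of its meiotic-like level in oogenesis-like cells. HOXA9 was at 2.37 CPM in granulosa-like, 3.15 in surface epithelium-like, 0.409 in CBLN2 LYPD1, 16.8 (15.2 to 18.5) in stroma-like, 10.2 in endothelial-like, 8.05 in pericyte-like, 0.922 in macrophage-like and 0.794 in erythroid-like cells. In germ cells HOXA9 stood at 25.1 CPM at the mitotic-like, 38.2 (34.97 to 41.6) at the RA-responsive-like, 31.5 at the meiotic-like and 17.7 at the oogenesis-like step. HOXA9, a gene of blood progenitors and the thoracic to lumbar axis, was 7.08 times as high in stroma-like as in granulosa-like cells. HOXA10 was at 2.09 CPM in granulosa-like, 2.43 in surface epithelium-like, 0.102 in CBLN2 LYPD1, 5.21 in stroma-like, 1.48 in endothelial-like, 8.05 (2.96 to 17.5) in pericyte-like, 2.77 in macrophage-like and 1.32 in erythroid-like cells. In germ cells HOXA10 stood at 49.03 (41.9 to 56.98) CPM at the mitotic-like, 46.8 at the RA-responsive-like, 39.6 at the meiotic-like and 11.2 at the oogenesis-like step. HOXA10, required in the uterus, differed by less than its intervals between the mitotic-like and the RA-responsive-like step. HOXA2, a gene of the pharyngeal arches, was at 15.1 CPM (13.1 to 17.3) in RA-responsive-like cells and below 5 CPM in the 11 other groups. HOXA4 had 0 UMIs in mitotic-like cells and 4.19 CPM (2.92 to 5.83) in meiotic-like cells. HOXA6 was at 5.19 CPM (3.08 to 8.20) in mitotic-like and 3.38 CPM (2.70 to 4.18) in stroma-like cells. HOXA11, a gene of uterus and limb, was at 11.2 CPM (7.998 to 15.4) in mitotic-like and 8.38 CPM (6.53 to 10.6) in meiotic-like cells, while no somatic group was above 0.265 CPM. HOXA13 had 36 UMIs, 18 of them in meiotic-like cells.

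HOXB genes had their highest germ cell levels at the RA-responsive-like step, other than HOXB6 and HOXB13. HOXB2 was at 3.18 CPM in granulosa-like, 19.02 in surface epithelium-like, 1.02 in CBLN2 LYPD1, 28.6 (26.6 to 30.8) in stroma-like, 13.1 in endothelial-like, 17.4 in pericyte-like, 4.61 in macrophage-like and 0.265 in erythroid-like cells. In germ cells HOXB2 stood at 2.02 CPM at the mitotic-like, 38.1 (34.9 to 41.5) at the RA-responsive-like, 14.4 at the meiotic-like and 1.98 at the oogenesis-like step. HOXB2, a hindbrain gene, was the one HOXB gene that was also high in stroma-like and surface epithelium-like cells. HOXB3 was at 2.22 CPM in granulosa-like, 2.65 in surface epithelium-like, 0.512 in CBLN2 LYPD1, 5.25 in stroma-like, 9.06 (6.70 to 11.97) in endothelial-like, 1.34 in pericyte-like, 3.69 in macrophage-like and 1.32 in erythroid-like cells. In germ cells HOXB3 stood at 3.17 CPM at the mitotic-like, 35.9 (32.8 to 39.2) at the RA-responsive-like, 24.1 at the meiotic-like and 3.06 at the oogenesis-like step. HOXB3, like HOXB2, was low in both mitotic-like and oogenesis-like germ cells. HOXB4 was at 1.43 CPM in granulosa-like, 0.858 in surface epithelium-like, 0.409 in CBLN2 LYPD1, 3.34 in stroma-like, 10.5 (7.98 to 13.7) in endothelial-like, 5.37 in pericyte-like, 5.53 in macrophage-like and 1.59 in erythroid-like cells. In germ cells HOXB4 stood at 8.94 CPM at the mitotic-like, 49.04 (45.4 to 52.9) at the RA-responsive-like, 14.7 at the meiotic-like and 13.6 at the oogenesis-like step. HOXB4, which expands blood stem cells when forced on, was lower at the meiotic-like than the RA-responsive-like step and similar at the meiotic-like and oogenesis-like ones. HOXB3 and HOXB4 overlap in RefSeq. HOXB5 was at 2.45 CPM in granulosa-like, 1.14 in surface epithelium-like, 0.409 in CBLN2 LYPD1, 1.87 in stroma-like, 7.58 (5.44 to 10.3) in endothelial-like, 1.34 in pericyte-like, 3.69 in macrophage-like and 1.59 in erythroid-like cells. In germ cells HOXB5 stood at 3.46 CPM at the mitotic-like, 91.2 (86.2 to 96.4) at the RA-responsive-like, 24.1 at the meiotic-like and 0.809 at the oogenesis-like step. HOXB5 had 1250 UMIs in all RA-responsive-like and 9 in all oogenesis-like cells. HOXB6 was at 1.20 CPM in granulosa-like, 1.22 in surface epithelium-like, 0.205 in CBLN2 LYPD1, 1.43 in stroma-like, 6.84 (4.82 to 9.43) in endothelial-like, 1.34 in pericyte-like, 3.69 in macrophage-like and 0.794 in erythroid-like cells. In germ cells HOXB6 stood at 1.73 CPM at the mitotic-like, 31.96 at the RA-responsive-like, 36.5 (32.5 to 40.9) at the meiotic-like and 10.2 at the oogenesis-like step. The RA-responsive-like and meiotic-like levels of HOXB6 had overlapping intervals. HOXB7 was at 1.49 CPM in granulosa-like, 0.858 in surface epithelium-like, 0.921 in CBLN2 LYPD1, 2.47 in stroma-like, 20.3 (16.7 to 24.5) in endothelial-like, 14.8 in pericyte-like, 7.37 in macrophage-like and 0.265 in erythroid-like cells. In germ cells HOXB7 stood at 10.1 CPM at the mitotic-like, 40.1 (36.9 to 43.6) at the RA-responsive-like, 30.4 at the meiotic-like and 27.9 at the oogenesis-like step. HOXB7 had its highest somatic point value in endothelial-like cells, next to 14.8 CPM in the 140 pericyte-like cells, and stayed at 27.9 CPM in oogenesis-like cells. HOXB8 was at 1.12 CPM in granulosa-like, 0.357 in surface epithelium-like, 0.102 in CBLN2 LYPD1, 0.676 in stroma-like, 2.22 in endothelial-like, 1.34 in pericyte-like, 7.37 (3.18 to 14.5) in macrophage-like and 1.06 in erythroid-like cells. In germ cells HOXB8 stood at 1.15 CPM at the mitotic-like, 36.5 (33.4 to 39.8) at the RA-responsive-like, 18.4 at the meiotic-like and 2.43 at the oogenesis-like step. Its macrophage-like value rested on 8 UMIs. HOXB9 was at 1.38 CPM in granulosa-like, 0.143 in surface epithelium-like, 0.409 in CBLN2 LYPD1, 0.438 in stroma-like, 3.14 (1.83 to 5.03) in endothelial-like, 1.34 in pericyte-like, 2.77 in macrophage-like and 1.85 in erythroid-like cells. In germ cells HOXB9 stood at 12.4 CPM at the mitotic-like, 26.1 (23.4 to 28.9) at the RA-responsive-like, 24.7 at the meiotic-like and 8.27 at the oogenesis-like step. HOXB8 and HOXB9 overlap in RefSeq, and mitotic-like cells held 4 and 43 UMIs of them. HOXB13, a gene of prostate and tail bud, had 0 UMIs in mitotic-like cells, where 3 UMIs set the limit at 0.865 CPM, and 11.01 CPM (8.88 to 13.5) in meiotic-like and 8.90 CPM (7.23 to 10.8) in oogenesis-like cells. HOXB1 had 14 UMIs in the whole table. Where a group is given at 0 CPM, the limit set by 3 UMIs was 0.794 CPM in erythroid-like and 4.03 in pericyte-like cells.

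Between the 2 largest somatic groups, the stroma-like cells had more HOXA and less HOXD than the granulosa-like cells. A gene was counted as higher or lower when its levels, with 1 CPM added to both, differed at least 2-fold, among the 15147 genes with at least 50 UMIs in the whole table, a floor that 32 members passed (HOXA13, HOXB1 and HOXC12 did not). In stroma-like cells 8 members were higher (HOXA2, HOXA3, HOXA5, HOXA6, HOXA9, HOXA10, HOXB2 and HOXC6), against 7.19% of all genes. HOXD3, HOXD4, HOXD9 and HOXD10 were lower, 4 of 32 against 9.18% of all genes, a share near the background. Within barcodes ending in 1 it was 2 of 32 against 10.5%, and within those ending in 2 it was 5 against 8.85%. At clustering resolution 0.4, where the CBLN2 LYPD1 cells joined the granulosa-like group, 4 were higher and 8 lower. With 1 CPM added, the largest ratios were those of HOXB2, HOXA9 and HOXA6, given here without it: HOXB2 (28.6 against 3.18 CPM, log2 ratio 3.17 (2.89 to 3.46)), HOXA9 (16.8 against 2.37 CPM, 2.82 (2.49 to 3.17)) and HOXA6 (3.38 against 0.391 CPM, 3.11 (2.31 to 4.01)). On the other side HOXD3 was at 5.33 against 24.6 CPM (log2 ratio -2.21 (-2.48 to -1.95)), HOXD9 at 65.2 against 237 (-1.86 (-1.94 to -1.78)) and HOXD10 at 21.1 against 54.5 (-1.37 (-1.51 to -1.23)). The median log2 ratio with 1 CPM added was 1.09 for HOXA, 0.15 for HOXB, 0.25 for HOXC and -1.23 for HOXD, against -0.088 over all genes. The sum of HOXA and HOXB had a log2 ratio of 1.61 (1.52 to 1.70), 1.32 within barcodes ending in 1 and 1.99 within those ending in 2. For HOXD the 3 values were -1.52 (-1.57 to -1.48), -1.18 and -1.73. HOXD10 was the member on which the endings differed most, with 38.8 CPM in stroma-like against 49.00 in granulosa-like cells under ending 1 (log2 ratio -0.34 (-0.53 to -0.15)) and 12.5 against 58.2 under ending 2 (-2.21 (-2.43 to -2.004)).

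**Figure D3:**
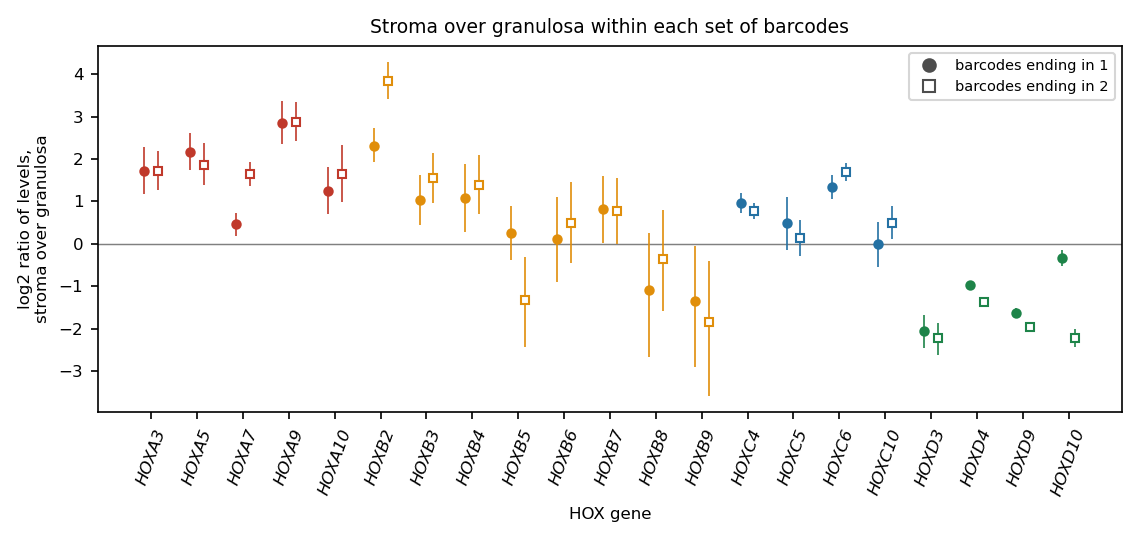
Log2 ratio of stroma-like over granulosa-like level (no CPM added, with exact 95% intervals for counting error) for HOX genes with at least 500 UMIs, by cluster and paralog number, within barcodes ending in 1 (filled circles) and in 2 (open squares). HOXA genes and HOXB2 lie above 0, and HOXD3, HOXD4, HOXD9 and HOXD10 below it, under both endings.

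Within the granulosa-like and stroma-like cells the HOX level varied between clusters of cells. The granulosa-like cluster led by SOST had a HOX sum of 798 CPM and that led by MNDA 728 CPM, while the clusters led by PLXNC1 and PCP4 had 258 and 259 CPM. A shallow cluster led by TRANK1 (900 cells, median 704 UMIs) had 649 CPM. Its HOXA and HOXB genes summed to 117 CPM (95.3 to 142), near the stroma-like 116 CPM. In the PLXNC1 cluster a median of 50.2% of UMIs were mitochondrial, and HOXD4 stood at 107 CPM, against 322 in the SOST and 244 in the MNDA cluster. The PCP4 cluster had HOXD4 at 108 CPM with a median mitochondrial share of 13.9%. HOXD10 was higher in the MNDA cluster (82.8 CPM, almost all barcodes ending in 2) than in the SOST cluster (50.1 CPM, almost all ending in 1). Among stroma-like cells the POSTN cluster, mostly of ending 1, had HOXD4 at 163 CPM and HOXD10 at 39.1 CPM, and the C7 cluster, mostly of ending 2, had 74.4 and 13.3 CPM. HOXB2 and HOXC6 went the other way, at 22.6 and 29.2 CPM in the POSTN and 31.2 and 37.3 CPM in the C7 cluster.

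Surface epithelium-like cells, like granulosa-like cells, drew most of their HOX UMIs from HOXD, and their HOX sum was higher. With a HOX sum of 860.5 against 638 CPM, the log2 ratio was 0.43 (0.40 to 0.46), 0.16 within ending 1 and 0.65 within ending 2. HOXB2 (19.02 against 3.18 CPM, log2 ratio 2.58 (2.27 to 2.90)) and HOXC6 (26.02 against 11.8 CPM, 1.15 (0.94 to 1.35)) were the 2 of 32 members past 2-fold higher, against 5.08% of all genes, a share near the background. HOXB9 was lower, at 0.143 against 1.38 CPM (-3.27 (-6.36 to -1.35)), where 4.73% of all genes were lower. The surface epithelium-like value of HOXB9 rested on 2 UMIs. HOXB2 and HOXC6 were also among the 8 members that were higher in stroma-like than in granulosa-like cells, and HOXB2 reached 28.6 CPM in stroma-like cells. In the CBLN2 LYPD1 cluster, HOXA and HOXB summed to 9.41 CPM, below the erythroid-like level of 14.8 CPM, while HOXD10 (54.02 CPM) was at the granulosa-like level (54.5 CPM) and HOXD4 (148 CPM) and HOXD9 (122 CPM) were below it. Endothelial-like cells had the highest somatic point value of HOXB3 to HOXB7 and HOXB9. The pericyte-like and macrophage-like groups held only 35 and 42 HOXB UMIs in all, so the order against these 2 groups is uncertain.

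Against stroma-like cells, germ cell-like cells as a whole had a higher HOXB sum and a lower HOXC sum. Of the 6 HOXC genes tested, 2 were higher and 2 lower in germ cells. Of the 32 members, 19 were higher in germ cells, against 24.5% of all genes. HOXC4, HOXC6 and HOXD10 were lower, 3 of 32 or 9.38%, below the 13.9% of all genes. HOXB5 (39.1 against 1.87 CPM, log2 ratio 4.39 (3.97 to 4.84)), HOXB9 (18.1 against 0.438, 5.37 (4.53 to 6.38)) and HOXB8 (17.98 against 0.676, 4.73 (4.04 to 5.52)) had the largest ratios with 1 CPM added, while the values given are without it. HOXC6 was at 5.95 against 35.1 CPM (-2.56 (-2.75 to -2.37)), HOXC4 at 10.7 against 33.2 (-1.63 (-1.79 to -1.47)) and HOXD10 at 9.63 against 21.1 (-1.13 (-1.31 to -0.95)). These values include the 2565 unnamed cells with their granulosa markers. Without them, an alternative chosen after seeing the data, the 3701 cells of the named steps had HOXD10 at 2.26 CPM (log2 ratio -3.22 (-3.57 to -2.89)), HOXC4 at 8.95 (-1.89 (-2.08 to -1.71)), HOXC6 at 5.18 (-2.76 (-2.99 to -2.53)) and HOXB5 at 40.2 (4.42 (4.01 to 4.88)). HOXD4 was then also past 2-fold lower, at 46.96 CPM (-1.11 (-1.20 to -1.02)). The HOXD sum was 163 CPM in all germ cell-like cells, 101 CPM in the named steps and 195 CPM in stroma-like cells. With the unnamed cells, the median log2 ratio was 3.06 for HOXB, 1.36 for HOXA, -0.58 for HOXC and 0.36 for HOXD, against 0.25 over all genes. The HOX sum as a whole had a log2 ratio of 0.59 (0.56 to 0.63), but 0.063 within ending 1 and 0.96 within ending 2. In cells of 200 to 3000 genes it was 0.033 (-0.021 to 0.087), an interval that included 0. The HOXA and HOXB sum had the same direction in each of these, at 1.77 (1.71 to 1.82) pooled, 1.36 and 2.05 by ending, and 1.18 in cells of 200 to 3000 genes.

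Along the germ cell steps, the summed HOX level was lowest in mitotic-like and oogenesis-like cells and highest at the RA-responsive-like step, while single members were highest at different steps. The HOX sum was 244 CPM (228 to 261) in mitotic-like and 842 CPM (827 to 857) in RA-responsive-like cells, a log2 ratio of 1.79 (1.69 to 1.89), or 1.47 within ending 1. Barcodes ending in 2 held too few mitotic-like cells for a value, and the log2 ratio was 0.80 at clustering resolution 0.4, 0.89 without the cells of the highest doublet scores and 1.08 in cells of 200 to 3000 genes. In the first 2 of these settings the mitotic-like group also took in a cluster led by EGR3 (298 and 176 cells). SOST and KITLG were among its leading genes, and in the main clustering a cluster with like leading genes stayed unnamed. At the RA-responsive-like step 23 of 32 members were higher, against 15.8% of all genes, and within ending 1 it was 19 of 32, against 14.4%. At resolution 0.4 the count was 14. HOXA11 alone was lower, where 8.41% of all genes were lower, at 3.07 against 11.2 CPM (log2 ratio -1.88 (-2.54 to -1.21)). All 9 HOXB genes of at least 50 UMIs, 5 of 10 HOXA, 4 of 6 HOXC and 5 of 7 HOXD genes were higher. With 1 CPM added, the 3 largest ratios were those of HOXB5, HOXB8 and HOXB2. HOXB5 was at 91.2 against 3.46 CPM (log2 ratio without the added CPM 4.72 (3.91 to 5.68)), HOXB8 at 36.5 against 1.15 (4.98 (3.62 to 6.86)) and HOXB2 at 38.1 against 2.02 (4.24 (3.18 to 5.56)). With 1 CPM added, the log2 ratio of HOXB5 was 4.37, 2.21 at resolution 0.4 and 2.32 without the cells of the highest doublet scores, and that of HOXB2 was 3.69, 1.81 and 2.02. Within ending 1 HOXB5 was at 66.05 against 3.51 CPM, HOXB8 at 23.2 against 0.879 and HOXB2 at 26.9 against 1.46. HOXA4, HOXB13, HOXD12 and HOXD13 had no UMI in mitotic-like cells, and against the limit of 3 UMIs they were at least 2.61-fold, 2.78-fold, 2.02-fold and 1.94-fold higher at the RA-responsive-like step. HOXC11 also had none there, and its RA-responsive-like level of 0.438 CPM lay under the limit of 0.865 CPM. The median log2 ratio of the 32 members was 1.64 with 1 CPM added, 1.89 with genes at 0 set to their bound, and 0.20 over all genes. The steps are marker-based groups, and their order along development was taken from the marker lists.

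In HOXA the ratio of the RA-responsive-like to the mitotic-like step was larger for low than for high paralog numbers. HOXA2 (15.1 against 0.865 CPM, log2 ratio 4.13 (2.56 to 6.42)) and HOXA3 (53.7 against 5.19 CPM, log2 ratio 3.37 (2.70 to 4.13)) were far apart at the 2 steps. With 1 CPM added, HOXA3 had 3.14, and 1.89 at resolution 0.4 and 1.95 without the highest doublet scores. HOXA5 (62.8 against 16.2 CPM, 1.96 (1.57 to 2.38)) had a smaller ratio. HOXA7 (0.83 (0.58 to 1.08)) and HOXA9 (0.61 (0.28 to 0.95)) had smaller log2 ratios, HOXA10 had -0.068 (-0.31 to 0.18) and HOXA11 was lower. Over the 10 HOXA genes of at least 50 UMIs, Spearman's rank correlation between paralog number and the log2 ratio was -0.78, given as a description of genes that share the same libraries and cells. It was -0.83 over the 6 HOXA genes of at least 500 UMIs within ending 1. In HOXB the rank correlation was -0.50 over 9 genes and -0.31 over 8 within ending 1, with HOXB4 (2.46 (1.94 to 3.02)), HOXB7 (1.99 (1.498 to 2.53)) and HOXB9 (1.07 (0.61 to 1.56)) below their neighbours HOXB5, HOXB6 (4.21 (3.07 to 5.66)) and HOXB8. Genes of paralog numbers 9 to 13 held 47.1% of HOX UMIs in mitotic-like and 20.5% in RA-responsive-like cells, and numbers 1 to 3 8.05% and 20.3%. In the somatic groups numbers 9 to 13 gave 48.1% of HOX UMIs in granulosa-like and 30.02% in stroma-like cells, where HOXD9 was the main source.

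**Figure D4:**
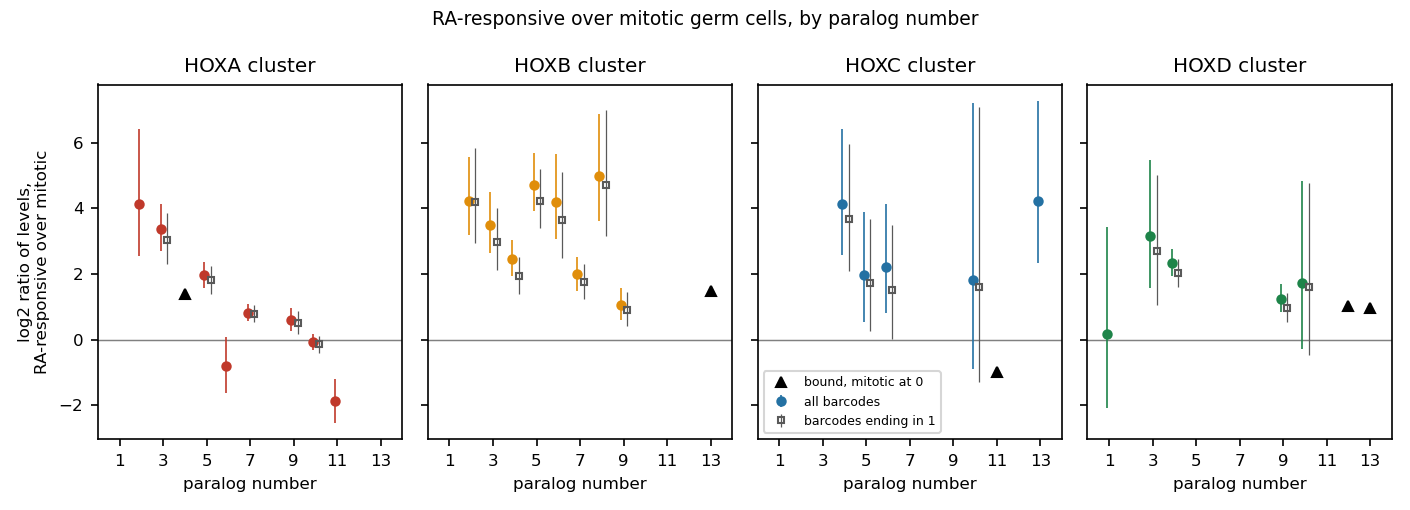
Log2 ratio of the RA-responsive-like over the mitotic-like level (no CPM added, with exact 95% intervals for counting error) against paralog number for HOX genes of at least 50 UMIs, one panel per cluster, pooled (filled circles) and, for those of at least 500 UMIs, within barcodes ending in 1 (open squares), with triangles at the ratio to the limit of 3 UMIs for genes without a UMI in mitotic-like cells. HOXA ratios run from above 3 at HOXA2 and HOXA3 to below 0 at HOXA11, and HOXB5, HOXB8 and HOXB2 have the largest ratios in HOXB.

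The RA-responsive-like step was made of 3 clusters of germ cells that differed in HOX level. The cluster of 715 cells had a HOX sum of 570.2 CPM, that of 565 cells 705 CPM, and a cluster of 206 cells, 203 of them with barcodes ending in 2, 1222 CPM. In this last cluster RFX6, MEIS2, MEIS1 and SKAP2 were among the 10 leading genes. HOXB5 was at 63.2, 70.7 and 143 CPM in the 3 clusters, HOXA3 at 30.2, 41.98 and 86.5, HOXB2 at 12.6, 31.6 and 61.8, and HOXD4 at 64.3, 59.6 and 121. HOXA10 varied less (34.6, 45.4 and 54.7 CPM). Each of the 3 clusters was above the mitotic-like cells in HOXB5 (3.46 CPM), HOXA3 (5.19 CPM) and HOXB2 (2.02 CPM). The stage of the cells with either ending is not given, so ending, step and age cannot be told apart in this cluster.

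From the RA-responsive-like to the meiotic-like step, several HOX genes of low paralog number were lower and several of high number higher in the pooled cells, with HOXC13 and HOXD1 as exceptions. The HOX sum had a log2 ratio of -0.53 (-0.58 to -0.48), -0.91 within ending 1 and -0.43 within ending 2. HOXA2, HOXA5, HOXB2, HOXB4, HOXB5, HOXC13 and HOXD3 were lower, 7 of 32 against 10.3% of all genes. HOXA11, HOXB13, HOXC10, HOXC11, HOXD1 and HOXD12 were higher, 6 of 32 against 11.5%. Within ending 1, 11 were lower (against 12.5% of all genes) and 4 higher (against 12%), and within ending 2, 6 were lower (10.3%) and 8 higher (13.2%). HOXB5 was at 24.1 against 91.2 CPM (log2 ratio -1.92 (-2.14 to -1.71)), HOXA2 at 3.95 against 15.1 (-1.93 (-2.51 to -1.40)) and HOXB4 at 14.7 against 49.04 (-1.74 (-2.02 to -1.46)). HOXC10 was at 9.10 against 1.02 CPM (3.15 (2.32 to 4.09)), HOXC11 at 5.39 against 0.438 (3.62 (2.39 to 5.14)) and HOXD1 at 5.87 against 0.657 (3.16 (2.12 to 4.37)). Within the endings HOXB5 had log2 ratios of -2.53 (ending 1) and -1.80 (ending 2), HOXB4 -2.48 and -1.58, and HOXC10 2.95 and 3.23. HOXA9 (-1.14 and 0.24) and HOXA10 (-1.04 and 0.31) had ratios of opposite sign under the 2 endings. The rank correlation between paralog number and ratio was 0.71 over 10 HOXA and 0.65 over 9 HOXB genes of at least 50 UMIs, pooled. Within the endings it was taken over the 6 HOXA and 8 HOXB genes of at least 500 UMIs. It was -0.49 and 0.12 within ending 1, and 0.94 and 0.57 within ending 2. The pooled order was thus not seen within ending 1 in either cluster, over these fewer genes.

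Oogenesis-like cells had less of nearly every HOX gene than meiotic-like cells. The log2 ratio of the HOX sum was -1.23 (-1.30 to -1.17), and -1.82 within barcodes ending in 2, which held most oogenesis-like cells, but -0.39 in cells of 200 to 3000 genes. Of the 32 members 23 were lower, against 20.2% of all genes, and 0 were higher, against 13.8%. Within ending 2 the lower count was 25, against 20.4% of all genes there, and ending 1 held too few oogenesis-like cells for a value. HOXB5 was at 0.809 against 24.1 CPM (log2 ratio -4.89 (-6.04 to -3.94)), HOXA5 at 1.17 against 20.7 (-4.15 (-5.09 to -3.34)) and HOXA3 at 4.22 against 33.6 (-2.99 (-3.47 to -2.54)). HOXA7 (46.7 against 56.7 CPM, -0.28 (-0.46 to -0.10)), HOXB7 (27.9 against 30.4 CPM, -0.12 (-0.37 to 0.12)) and HOXD9 (45.9 against 52.6 CPM, -0.19 (-0.38 to -0.0074)) stayed within 2-fold. The median log2 ratio was -1.67 over the members and -0.18 over all genes. Both oogenesis-like clusters had low sums, 169 CPM in the 348 cells led by ZP4 and 253 CPM in the 321 deeper cells with PADI6 and ZAR1 among the leading genes. The meiotic-like clusters had 365 CPM in 928 cells with a median of 1909 UMIs and 701 CPM in 363 cells with a median of 13963 UMIs, so depth moved with HOX level here and its part was not tested.

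**Figure D5:**
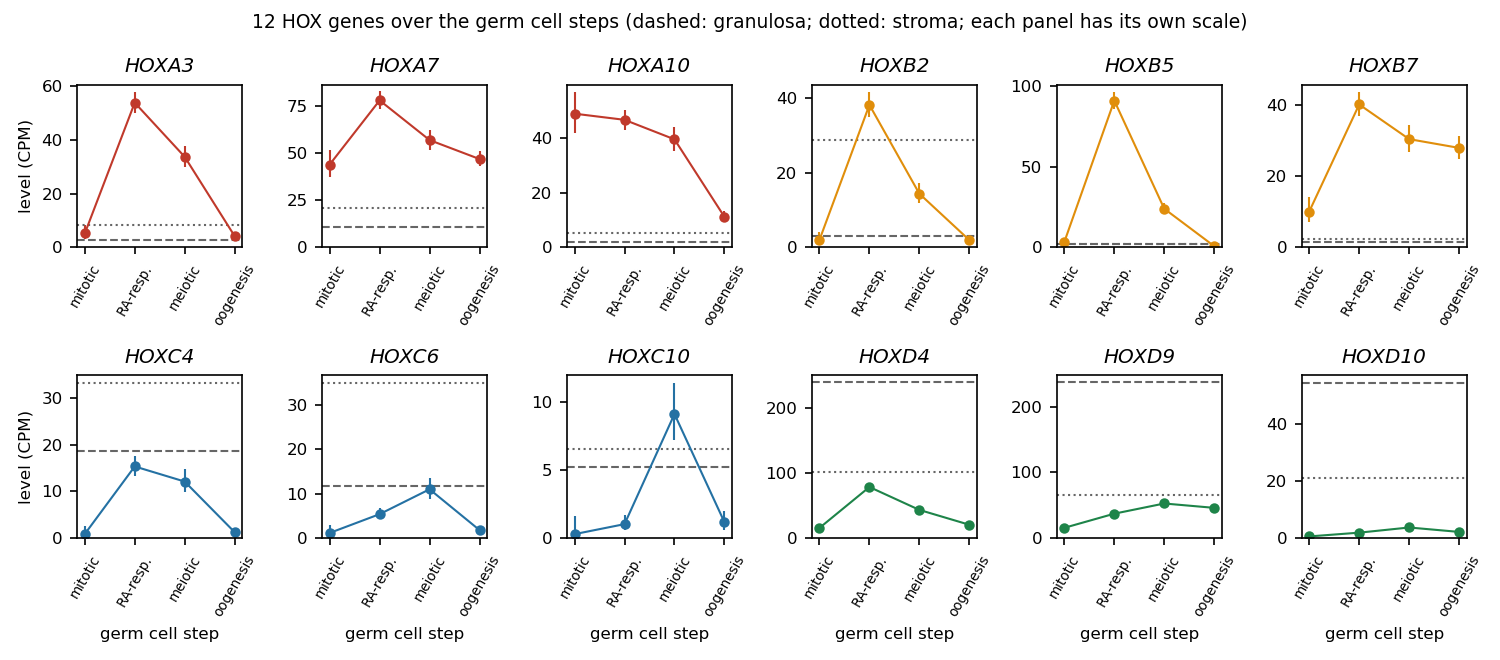
Level (CPM, with exact 95% Poisson intervals for counting error) of 12 HOX genes over the 4 germ cell steps, with the granulosa-like level dashed and the stroma-like level dotted. Most HOXA and HOXB genes peak at the RA-responsive-like step, as HOXB5 does at 91.2 CPM, and HOXA7 stays at 46.7 CPM in oogenesis-like cells.

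Seen cell by cell, HOX transcripts were sparse outside a few groups. After each cell was thinned to 1000 UMIs, 55.8% (53.00 to 58.7) of surface epithelium-like, 49.4% (46.8 to 52.1) of RA-responsive-like and 42.3% (40.95 to 43.6) of granulosa-like cells had at least 1 HOX UMI. The share was 35.1% in stroma-like, 31.3% in meiotic-like, 30.02% in endothelial-like, 23.9% in mitotic-like and 19.5% in oogenesis-like cells. It was 9.18% in macrophage-like and 5.22% (3.64 to 7.22) in erythroid-like cells, and the erythroid-like cells served as the gauge of free RNA. Granulosa markers stood at 4.76% of their granulosa-like level in erythroid-like cells and at 7.39% to 17.01% in the 4 germ cell steps, so this gauge can be too low for germ cells. The unthinned shares were 90.8%, 84.9%, 68.8% and 17.2% in surface epithelium-like, RA-responsive-like, granulosa-like and erythroid-like cells, at median depths of 6735, 5553, 3704 and 4072 UMIs. A HOXA or HOXB UMI was found in 42.2% of thinned RA-responsive-like, 21.8% of meiotic-like and 20.8% of mitotic-like cells, in 11.9% of stroma-like and 3.67% of granulosa-like cells and in 4.59% of macrophage-like and 1.23% of erythroid-like cells. HOXB5 alone was found in 7.92% (6.57 to 9.43) of RA-responsive-like, 1.70% of meiotic-like and 0.207% of stroma-like cells. HOXD4 was found in 29.00% of surface epithelium-like, 20% of granulosa-like, 11.4% of stroma-like and 1.23% of erythroid-like cells. Cells under 1000 UMIs were left out, 898 granulosa-like, 46 RA-responsive-like and 93 erythroid-like ones among them.

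Deeper cells, thinned to 5000 UMIs, show how many members 1 cell carried. RA-responsive-like cells held a median of 3 different HOX genes (quartiles 2 and 5, at most 17, 782 cells), surface epithelium-like, granulosa-like and meiotic-like cells a median of 2, and mitotic-like, oogenesis-like and stroma-like cells 1. In erythroid-like cells the median was 0. The mean number of HOXA and HOXB genes per cell was 2.80 at the RA-responsive-like and 1.02 at the mitotic-like step, against 0.491 in stroma-like and 0.171 in granulosa-like cells, and that of HOXC and HOXD genes was 1.77 in granulosa-like and 0.720 in RA-responsive-like cells.

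Genes of 1 cluster had like profiles over the 12 groups. Pearson's r of log2(CPM + 1) over the 12 groups had a median of 0.85 (0.70 to 0.94) over pairs within HOXA, 0.81 (0.13 to 0.94) within HOXB, 0.83 (0.79 to 0.95) within HOXC and 0.87 (0.80 to 0.90) within HOXD, among the 22 genes of at least 500 UMIs. Between clusters the median was 0.72 for HOXA with HOXB and 0.64 for HOXC with HOXD, but -0.28 for HOXA with HOXD and -0.28 for HOXB with HOXD. The most alike pairs were HOXC4 and HOXC6 (0.95), HOXB3 and HOXB5 (0.94), HOXA7 and HOXA9 (0.94) and HOXB4 and HOXB7 (0.93). The groups come from the same libraries, overlapping genes can share reads, and the values are given as a description.

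Of 9 TALE genes, MEIS1 (78.2 against 3.46 CPM) and MEIS2 (162 against 13.8 CPM) were over 2-fold higher at the RA-responsive-like than at the mitotic-like step, and 0 were lower, against 15.8% and 8.41% of all genes. MEIS1 stood higher still in stroma-like cells, at 96.1 CPM. The levels and counts of this and the other gene lists below are pooled and were not repeated within an ending. PBX3 was at 57.7, 79.5, 153 and 32.4 CPM over the 4 steps. Against the RA-responsive-like step, 4 were lower in meiotic-like cells, with MEIS1 at 11.3 CPM, MEIS2 at 31.5 CPM and PBX2 among them, and 0 higher, against 10.3% and 11.5% of all genes. In the next step 3 were lower and 2 higher, against 20.2% and 13.8%. Between the somatic groups, 3 (MEIS1, MEIS3 and PKNOX1) were higher in stroma-like than granulosa-like cells and 2 (PBX3 and PKNOX2) lower (all genes 7.19% and 9.18%), with MEIS1 at 27.1 CPM in the latter. In surface epithelium-like against granulosa-like cells 1 was higher and 3 lower (all genes 5.08% and 4.73%), and in germ cells against stroma-like cells 0 were higher and 5 lower (all genes 24.5% and 13.9%).

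Few genes that regulate the clusters passed 2-fold between the mitotic-like and the RA-responsive-like step. Of 20 Polycomb genes tested, 1 was higher at the RA-responsive-like than at the mitotic-like step (PHC2) and 0 lower, against 15.8% and 8.41% of all genes. In oogenesis-like against meiotic-like cells 2 were higher (JARID2 among them) and 8 lower, against 13.8% and 20.2% of all genes. SUZ12, the Polycomb gene with the most UMIs, was at 366, 243, 481 and 193 CPM over the 4 steps, and EZH2, the methyltransferase subunit, at 92.6, 177, 200.3 and 59.04 CPM. Between stroma-like and granulosa-like cells 0 of the 20 passed 2-fold in either direction. Of 9 Trithorax and activator genes, 1 was lower at the RA-responsive-like than at the mitotic-like step (RBBP5, 43.1 against 93.7 CPM), and 4 were lower and 1 higher in oogenesis-like than in meiotic-like cells, to be read against the same shares of all genes. GMNN, which encodes geminin, a replication licensing inhibitor that can bind HOX proteins, was at 50.5 CPM in mitotic-like, 185 in RA-responsive-like, 97.6 in meiotic-like and 109 in oogenesis-like cells. CDX2, a ParaHox activator of HOX genes, was at 0.288 CPM in mitotic-like and 3.65 in RA-responsive-like cells, and CDX1 at 14.7 and 19.9 CPM, so that 1 of 2 tested ParaHox genes passed 2-fold. The mitotic-like value of CDX2 rested on 1 UMI, under the limit of 3 UMIs (0.865 CPM).

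Of 12 tested genes from a chosen list of genes near the clusters, 8 were at least 2-fold higher and 2 lower at the RA-responsive-like than at the mitotic-like step, against 15.8% and 8.41% of all genes. The list was chosen with earlier results known and skips nearer genes. Of all 55 tested genes among up to 10 annotated on each side of a cluster, the listed ones included, 13 were higher (23.6%) and 6 lower (10.9%). At the low-numbered side of HOXA, SKAP2 was at 300.0 against 137 CPM (RA-responsive-like against mitotic-like) and SNX10 at 45.03 against 119 CPM. On the HOXA13 side EVX1 was at 0.511 against 2.31 CPM and HIBADH at 24.7 against 10.4 CPM. SKAP1, beyond HOXB1, was at 8.25 against 2.02 CPM, MTX2, beyond HOXD1, at 174 against 83.3 CPM and LNPK, on the HOXD13 side, at 129.8 against 36.6 CPM. Of the 12, 1 was higher and 2 lower at the meiotic-like than at the RA-responsive-like step (all genes 11.5% and 10.3%), and 1 was higher and 4 lower at the oogenesis-like than at the meiotic-like step (all genes 13.8% and 20.2%). The order of these genes was taken from the RefSeq annotation. Of 6 genes of gonad identity, which gauge somatic RNA in germ cells, 0 passed 2-fold between any 2 successive germ cell steps, and WT1 was at 5.48, 9.92, 11.9 and 8.90 CPM over the 4 steps, against 233 in granulosa-like cells. Between stroma-like and granulosa-like cells TCF21 was higher (476 against 17.7 CPM) and WT1 (59.4 CPM) and EMX2 (35.4 against 313 CPM) lower.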

How the data were processed

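RNA of single cells from the ovaries of 2 fetuses, 1 per stage, was counted with 10x Genomics 3' droplet kits. The authors aligned reads with Cell Ranger 3.0.2 and deposited raw UMI counts per gene and cell, pooled in 1 table. The labels do not tie the 2 barcode endings to a stage, so all cells were treated as 1 sample. All 20967 cells were kept (median depth 3130 UMIs for ending 1 and 4555.5 for ending 2). Scrublet in scanpy 1.11.5 called 0 doublets, so the caller had not worked, and an alternative left out the 8% of cells with the highest scores (1678 cells). Cells were clustered in Seurat 5.3.0 (R 4.3.3) with 2000 variable genes without the HOX genes, 18 principal components and resolution 0.6, and germ cell-like cells were clustered again. A cluster took the name of the list with the most markers that were at least 1.5-fold higher (10 CPM added) and found in at least 5% of its cells. It stayed unnamed with under 3 such markers, with a tie, where its 10 leading genes held at least 2 markers of another class and more of them than its own, or where none of its own led and either a second list came within 1 marker or its depth was low. Among all cells the germ cell lists counted as 1 class, and a tie of the macrophage and lymphocyte lists took the macrophage name. These naming rules were set with the clusters in view. Ratios and exact 95% intervals of summed counts were computed in Python 3.11.15 with scipy 1.17.1 and tested on simulated data. Levels were given for members of at least 500 UMIs, and for each contrast the 3 members with the largest ratios past 2-fold in each direction with separate intervals were named. Members, gene lists and markers were chosen with earlier results of these data known. The gene neighbours and overlaps came from the RefSeq gene table of another assembly, so no coordinates are given. PCR copies are collapsed by UMI, and intervals leave out the variation between animals. Some items are not reported here. Alternatives changed the limits on cells, the clustering, the averaging, the doublet filter, the barcode ending and the unnamed germ cells.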

Additional observations from a re-analysis of the deposited data

How the results depend on the processing

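Of 109 recomputed values of the 10 main results (the 6 ratios of HOX sums, both counts of members and both shares of paralogs 9 to 13), 56 moved by less than their counting interval or by less than 1.5 times for counts, and all 65 ratios kept the sign of their point value. The interval of germ cell-like over stroma-like in cells of 200 to 3000 genes (-0.021 to 0.087) included 0. The causes of the larger moves were not tested. In cells of 200 to 3000 genes, the log2 ratio of the HOX sum was 1.08 for RA-responsive-like over mitotic-like, 0.033 for germ cell-like over stroma-like, -0.82 for meiotic-like over RA-responsive-like, -0.39 for oogenesis-like over meiotic-like, -0.53 for stroma-like over granulosa-like and 0.49 for surface epithelium-like over granulosa-like, and paralogs 9 to 13 gave 47.1% in granulosa-like cells. With at most 10% mitochondrial UMIs, the log2 ratio of the HOX sum was 1.63 for RA-responsive-like over mitotic-like, -0.14 for meiotic-like over RA-responsive-like, -1.40 for oogenesis-like over meiotic-like, -0.93 for stroma-like over granulosa-like and 0.23 for surface epithelium-like over granulosa-like, and paralogs 9 to 13 gave 47.3% in granulosa-like cells. At resolution 0.4, which merged the CBLN2 LYPD1 cluster into the granulosa-like cells, the log2 ratio of the HOX sum was 0.80 for RA-responsive-like over mitotic-like, 0.52 for germ cell-like over stroma-like, -0.62 for meiotic-like over RA-responsive-like, -0.65 for stroma-like over granulosa-like and 0.49 for surface epithelium-like over granulosa-like, 8 members were past 2-fold lower in stroma-like than in granulosa-like cells and 4 members were past 2-fold higher in stroma-like than in granulosa-like cells, and paralogs 9 to 13 gave 46.5% in granulosa-like cells. At resolution 1, the log2 ratio of the HOX sum was 1.36 for RA-responsive-like over mitotic-like. With the mean of single-cell CPM, the log2 ratio of the HOX sum was 1.498 for RA-responsive-like over mitotic-like, 0.21 for germ cell-like over stroma-like, -0.77 for meiotic-like over RA-responsive-like, -0.71 for oogenesis-like over meiotic-like, -0.41 for stroma-like over granulosa-like and 0.52 for surface epithelium-like over granulosa-like, and paralogs 9 to 13 gave 46.2% in granulosa-like cells. Without the highest Scrublet scores, the log2 ratio of the HOX sum was 0.89 for RA-responsive-like over mitotic-like, 0.55 for germ cell-like over stroma-like, -1.30 for oogenesis-like over meiotic-like and -0.76 for stroma-like over granulosa-like. Within barcodes ending in 1, the log2 ratio of the HOX sum was 1.47 for RA-responsive-like over mitotic-like, 0.063 for germ cell-like over stroma-like, -0.91 for meiotic-like over RA-responsive-like, -0.60 for stroma-like over granulosa-like and 0.16 for surface epithelium-like over granulosa-like, 2 members were past 2-fold lower in stroma-like than in granulosa-like cells, and paralogs 9 to 13 gave 45.05% in granulosa-like cells and 32.5% in stroma-like cells. Within barcodes ending in 2, the log2 ratio of the HOX sum was 0.96 for germ cell-like over stroma-like, -0.43 for meiotic-like over RA-responsive-like, -1.82 for oogenesis-like over meiotic-like and 0.65 for surface epithelium-like over granulosa-like, and paralogs 9 to 13 gave 51.2% in granulosa-like cells and 28.1% in stroma-like cells. In cells of at least 5000 UMIs, a setting chosen after seeing the data, the log2 ratio of the HOX sum was 0.85 for germ cell-like over stroma-like, -0.46 for meiotic-like over RA-responsive-like, -1.35 for oogenesis-like over meiotic-like and -0.92 for stroma-like over granulosa-like, and paralogs 9 to 13 gave 48.96% in granulosa-like cells. Without the unnamed germ cells, also chosen after seeing the data, the log2 ratio of the HOX sum was 0.48 for germ cell-like over stroma-like. Among single genes, HOXA10 in RA-responsive-like over mitotic-like cells (1 CPM added) had a log2 ratio of -0.066 and changed sign at resolution 0.4 (0.39), at resolution 1 (0.056) and without the highest Scrublet scores (0.26). HOXB5, HOXB2 and HOXA3 kept their direction, with their lowest log2 ratios at resolution 0.4 (2.21, 1.81 and 1.89, from 4.37, 3.69 and 3.14). At resolution 0.4 and without the highest Scrublet scores, the mitotic-like group also held a cluster led by EGR3, with SOST and KITLG among its leading genes. The mitotic-like cells of these settings thus differ from those of the main clustering. The count of members higher at the RA-responsive-like step went from 23 to 14 at resolution 0.4, where HOXA11 (-0.97) no longer passed 2-fold. Barcodes ending in 2 held under 50 mitotic-like cells and those ending in 1 under 50 oogenesis-like cells, so these steps had no value there. Members under 50 UMIs could not be compared at this depth. No paired analysis was possible because the 2 samples were different fetuses of different stages, each group had 1 sample, and the cells are not tied to a sample.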
